A study of Mus musculus with 12 samples.

Results

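The 9 genes described here encode proteins that sense RNA or DNA in the cytosol, relay that signal, or limit the nucleic acid that could set it off. They were chosen by name, with earlier results of these data known, of 25919 gene symbols in the table. They are Ddx58, Ifih1, Dhx58, Mavs, Eif2ak2, Tmem173, Trex1, Samhd1 and Adar. Values are given for 8 of them, and all 8 passed the low-count filter. Trex1 is not analysed here. The libraries are bulk RNA sequenced from the 3' end, from livers of C57BL/6 mice of 7 weeks, and 2 groups are compared: Kupffer cells, which are macrophages resident in liver, at day 0 (2 libraries, a and b), and a group labelled CD40 at day 2 (4 libraries, a to d). CD40 is a surface receptor of antigen-presenting cells. No treatment, transgene or sort is given for either group, nor the event from which days are counted, nor whether a library is 1 animal. The series title speaks of whole liver although the samples are labelled by cell type, and its text speaks of 3 to 4 biological replicates, where Kupffer day 0 has 2. Cell label and day differ together between the groups and cannot be told apart. Since separate animals are not stated, p-values measure only how these 6 libraries vary, which could be technical variation.

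Cells detect viral or misplaced nucleic acid in the cytosol by a small set of receptors. RIG-I (gene Ddx58) and MDA5 (gene Ifih1) are helicases that bind double-stranded RNA and signal through MAVS, an adaptor on mitochondria, to interferon genes; LGP2 (gene Dhx58) is a related helicase without the signalling domains and tunes the other two. DNA is sensed by cGAS, whose product cGAMP activates STING (gene Tmem173) on the endoplasmic reticulum. PKR (gene Eif2ak2) is a kinase that stops translation when it binds double-stranded RNA. TREX1 degrades cytosolic DNA, SAMHD1 hydrolyses dNTPs and thereby limits DNA synthesis by viruses in myeloid cells, and ADAR1 (gene Adar) edits adenosines in double-stranded RNA so that MDA5 does not respond to the cell's own transcripts. Many of these genes are themselves induced by interferon.

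Total counts were 1612435 and 688498 in Kupffer day 0 and 725683 to 2271228 in CD40 day 2. Cd40 itself stood at 20.1 and 18.1 CPM (counts scaled to a common library total) in the Kupffer libraries and at 382, 375, 340 and 225 in CD40 day 2 a to d. The Kupffer libraries carried the markers of more than 1 cell type. The summed level of 8 liver endothelial markers was 1.29% and 1.39% of counts there and 0.0176% to 0.0454% in CD40 day 2. That of 8 Kupffer cell markers was 0.495% and 0.479% there and 0.0635% to 0.237% in CD40 day 2, where C1qb held 343 to 3504 counts a library and C1qa 72 to 604. C1qb did not pass the test, and the log2 fold change of C1qa was -1.01. Clec4f, Cd5l, Vsig4 and Folr2 were far lower, at -6.02, -5.66, -6.56 and -6.64. All 8 endothelial markers and 6 of 8 Kupffer markers were lower in CD40 day 2, where no marker of either list was at 0 in all 4 libraries. Of 7 stellate cell markers, 5 were lower, and Col1a1 was at 0 in every CD40 day 2 library. The 6 classical monocyte markers were all higher, at 1.29% to 1.74% of counts against 0.154% and 0.133%. A list of 5 conventional dendritic cell markers took 0.0135% and 0.016% of counts in Kupffer day 0 and 0.0507% to 0.0798% in CD40 day 2. Naaa was higher (49 and 17 counts in Kupffer day 0, 589, 455, 1116 and 865 in CD40 day 2). Zbtb46 was lower (log2 fold change -2.59). Xcr1 and Flt3 had few counts and did not pass, at log2 fold changes of 3.87 and 2.64, and 1 marker was not tested. The hepatocyte list took 0.0554% and 0.135% in the Kupffer libraries and 0.00675% to 0.0157% in CD40 day 2. A list of 5 neutrophil markers took 0.0818% in Kupffer a, 0.301% in Kupffer b and 0.0786% to 0.162% in CD40 day 2. Of these 5, 1 was higher and 4 did not pass. The part of these cell types in the results below was not tested, and in bulk RNA a change in the cells present and a change in RNA per cell cannot be told apart.

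The 8 genes did not move as a block. Samhd1, Dhx58, Ifih1, Tmem173 and Ddx58 were higher in CD40 day 2, Mavs was lower, and Adar and Eif2ak2 did not pass the test. In all, 5 of 8 were called higher and 1 lower at an adjusted p under 0.05 (edgeR quasi-likelihood test, Benjamini-Hochberg adjustment over 9852 genes). Over all genes tested, 23.2% were higher and 30.2% lower. The median log2 fold change was 1.21 for the 8 genes and -0.1 for all genes tested. For 6 of the 8 every CD40 day 2 library lay above both Kupffer libraries, as for 29.7% of all genes, and for 1 every CD40 day 2 library lay below both, as for 36.9% of all genes. Under each of the 12 alternative analyses all 8 genes kept the direction of their fold change.

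**Figure D1:**
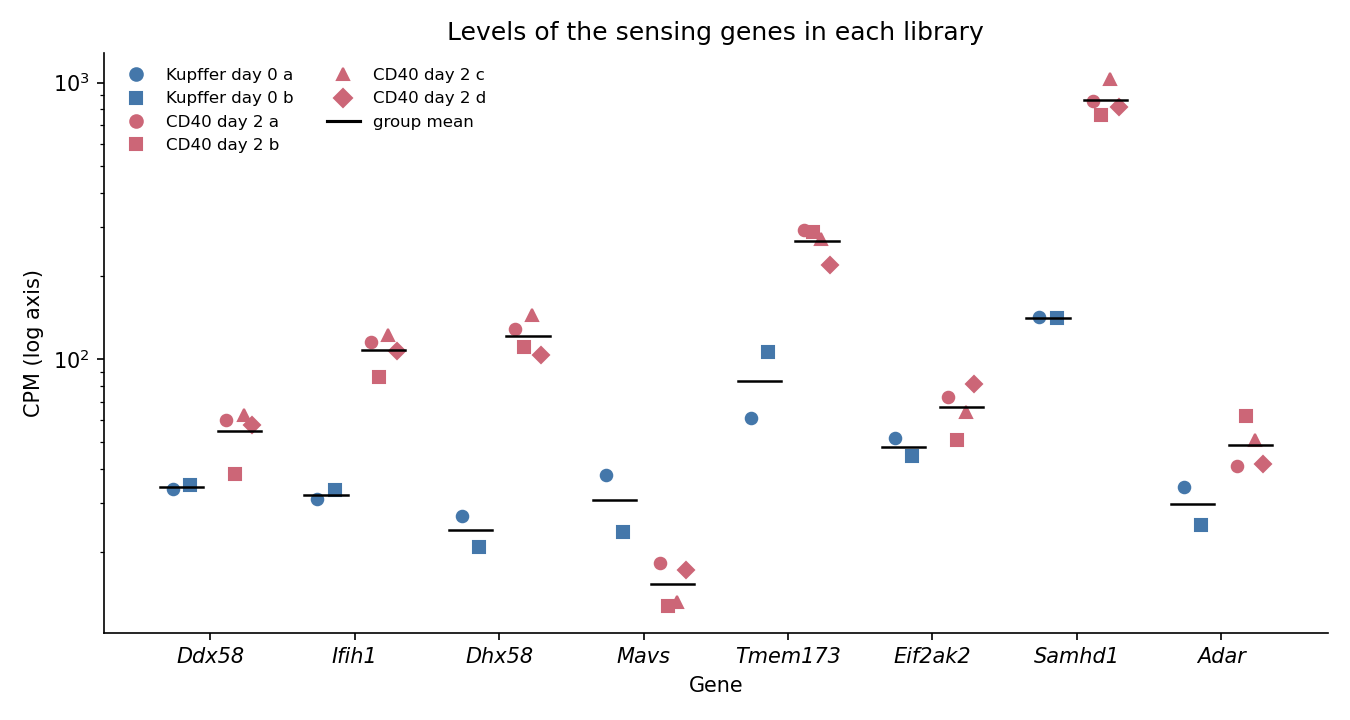
Level of each gene in CPM (log axis) in the 2 Kupffer day 0 and 4 CD40 day 2 libraries, 1 point per library, with the group mean as a bar. Samhd1 lies at 141 CPM in both Kupffer libraries and between 763 and 1027 in CD40 day 2, Mavs is the 1 gene with all CD40 day 2 points below both Kupffer points, and the groups overlap for Eif2ak2.

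Among the RNA helicase sensors, the largest difference was in Dhx58. It stood at 27.0 and 20.9 CPM in Kupffer a and b and at 128, 110, 144 and 103 CPM in CD40 day 2 a to d. Every CD40 day 2 library was well above both Kupffer libraries, with c highest and d lowest. The mean was 122 ± 18.5 CPM (SD, n = 4) against 23.9 ± 4.31 (n = 2), a 4.95-fold difference (log2 fold change 2.31 ± 0.24 SE, adjusted p = 3.72e-05). Only 5.75% of the genes tested had a larger log2 fold change. Dhx58 lies on chromosome 11 from 100694884 to 100704271 on the minus strand (GRCm38), and its annotated antisense neighbour Dhx58os held 1 count over the 6 libraries.

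Ifih1 was the second helicase to differ clearly. Its levels were 31.0 and 33.4 CPM in the Kupffer libraries and 115, 86.3, 122 and 107 CPM in CD40 day 2. The groups did not overlap, and CD40 day 2 b was the lowest of its 4. The 3.38-fold difference corresponds to a log2 fold change of 1.76 ± 0.22 SE (adjusted p = 0.000118). Ifih1 lies on chromosome 2 from 62595798 to 62646255, minus strand, with no other gene annotated over it. Dhx58 and Ifih1 were called under all 12 alternatives, with log2 fold changes of 2.14 to 2.53 and 1.59 to 1.91.

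Ddx58 moved less. It was at 33.9 and 34.8 CPM in the Kupffer libraries and at 60.1, 38.2, 62.8 and 57.8 CPM in CD40 day 2. No CD40 day 2 value fell below a Kupffer value, but library b lay close to both Kupffer libraries. The fold was 1.63 (log2 fold change 0.7 ± 0.24 SE, adjusted p = 0.0346), and 24.9% of the genes tested had a larger one. The call was lost in 8 of 12 alternatives. Leaving out Kupffer a gave 0.67 (adjusted p = 0.197) and leaving out Kupffer b gave 0.72 (0.126). Without CD40 day 2 a, c or d the values were 0.67 (0.0629), 0.62 (0.0916) and 0.68 (0.0578). With total counts as the scale the value was 0.53 (0.0888), with the stricter count filter 0.57 (0.0745), and with DESeq2 0.74 (0.0829), all by adjusted p. Without CD40 day 2 b it was 0.88 (adjusted p = 0.00325), the lowest adjusted p of the alternatives. The gene lies on chromosome 4 from 40203773 to 40239828, minus strand.

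Ratios of counts within a library do not depend on how libraries are scaled. Ifih1 held 0.915 and 0.96 counts for each Ddx58 count in the Kupffer libraries and 1.91, 2.26, 1.94 and 1.85 in CD40 day 2. The ratio was just under 1 in both Kupffer libraries and higher in each CD40 day 2 library; only the change is read here, since counts of different genes are not levels per length. The mean log2 ratio differed by 1.08 between groups, with an SD of 0.13 over the 4 CD40 day 2 libraries and 0.049 over the 2 Kupffer libraries. The ratio of Dhx58 to Ddx58 went from 0.797 and 0.6 to 2.14, 2.89, 2.3 and 1.78 (difference of mean log2 ratios 1.7). Dhx58 to Ifih1 was 0.87 and 0.625 against 1.12, 1.28, 1.18 and 0.967, with a smaller difference of 0.62. None of these 3 ratios, nor that of Tmem173 to Mavs below, overlapped between groups. For Tmem173 to Mavs this follows from the single genes, since every CD40 day 2 library lay above both Kupffer libraries for Tmem173 and below for Mavs. How often other gene pairs separate was not examined. In a two-sided exact permutation test each of the 4 ratios gave p = 0.133, also after adjustment over the 4. That is the smallest value that this form of the test allows for 4 libraries against 2, so it cannot reach 0.05 here.

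**Figure D2:**
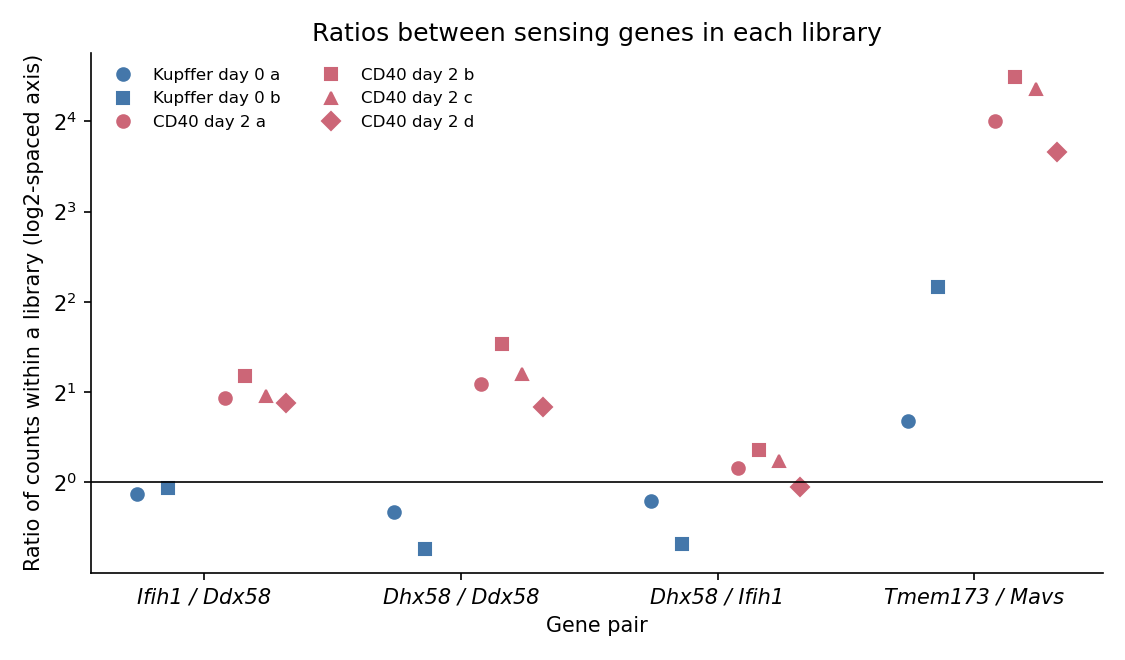
Ratio of the counts of 2 genes within each library (axis in powers of 2), 1 point per library, Kupffer day 0 in blue and CD40 day 2 in red. For all 4 gene pairs the CD40 day 2 points lie above the Kupffer points, and Ifih1 to Ddx58 moves from just under 1 to between 1.85 and 2.26.

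The 2 adaptors went in opposite directions. Tmem173, which encodes STING, was at 60.9 and 106 CPM in Kupffer a and b and at 293, 287, 272 and 218 CPM in CD40 day 2. The Kupffer libraries differed from each other by a factor of 1.74, the widest Kupffer gap of the 8 genes, yet both lay far below all 4 CD40 day 2 libraries. The means were 267 ± 34.2 CPM (SD, n = 4) and 83.4 ± 31.8 (n = 2), with a log2 fold change of 1.72 ± 0.25 SE (adjusted p = 0.000328). It was called under all 12 alternatives, at 1.33 without Kupffer a and 2.13 without Kupffer b. Tmem173 lies on the minus strand from 35733679 to 35740554 of chromosome 18.

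Mavs, the adaptor of the RNA helicases, was lower. It was counted 66 and 17 times in the Kupffer libraries, or 37.9 and 23.7 CPM, and 20, 9, 29 and 29 times in CD40 day 2, or 18.2, 12.7, 13.2 and 17.3 CPM. The groups did not overlap, and the 4 CD40 day 2 values lay close together. The level in Kupffer day 0 was 2.07 times that in CD40 day 2, a log2 fold change of -1.05 ± 0.29 SE (adjusted p = 0.0124). These counts are low: the exact 95% Poisson interval of Kupffer b runs from 13.8 to 37.9 CPM and that of CD40 day 2 a from 11.1 to 28.1, which covers counting error only. Kupffer a carries much of the difference, since without it the value was -0.62 (adjusted p = 0.282), and DESeq2 gave -0.98 (adjusted p = 0.0757). The other 10 alternatives kept the call, at -1.29 to -0.95. Mavs lies on chromosome 2 from 131234063 to 131248025, plus strand. The count ratio of Tmem173 to Mavs was 1.61 and 4.47 in the Kupffer libraries and 16.1, 22.6, 20.6 and 12.6 in CD40 day 2.

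Samhd1 showed the largest rise of the 8 genes. It was at 141 CPM in both Kupffer libraries and at 855, 763, 1027 and 816 CPM in CD40 day 2. The Kupffer libraries differed by less than 1 CPM, and the lowest CD40 day 2 library was still far above them. The means were 865 ± 114 CPM (SD, n = 4) and 141 ± 0.409 (n = 2), a 6.14-fold difference (log2 fold change 2.62 ± 0.19 SE, adjusted p = 4.48e-06). Of all genes tested, 4.37% had a larger fold change, so Samhd1 was in the upper range of the comparison without leading it. The range over the 12 alternatives was 2.45 to 2.74, each called. Samhd1 lies on chromosome 2 from 157097533 to 157135265, minus strand, with no other gene annotated over it.

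Adar, the RNA editing enzyme, was at 34.5 and 25.1 CPM in the Kupffer libraries and at 41.0, 62.2, 51.0 and 41.7 CPM in CD40 day 2. All 4 CD40 day 2 values lay above both Kupffer values, with b highest, whereas b was the lowest CD40 day 2 library for 5 of the 8 genes. The log2 fold change was 0.66 ± 0.26 SE, just short of the threshold (adjusted p = 0.0546). It passed in 4 of 12 alternatives: 0.7 with RLE size factors (adjusted p = 0.0413), and 0.73 (0.049), 0.61 (0.0484) and 0.72 (0.0497) without CD40 day 2 a, b or d. Adar lies on chromosome 3 from 89715022 to 89753446, plus strand. Chrnb2 is annotated over it on the other strand and held 2 counts over the 6 libraries.

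Eif2ak2, which encodes PKR, was at 51.7 and 44.6 CPM in the Kupffer libraries and at 72.8, 50.9, 64.2 and 81.0 CPM in CD40 day 2. Library b fell within the Kupffer range, and the other 3 were above it. The log2 fold change was 0.48 ± 0.23 SE (adjusted p = 0.0997), and it passed in 1 of 12 alternatives, without CD40 day 2 b (0.64, adjusted p = 0.0186). Eif2ak2 lies on chromosome 17 from 78852564 to 78882573, minus strand. Of the genes annotated over it on the other strand, Gm26637 held 26 counts over the 6 libraries and n-R5s29 is not analysed here. For Adar and Eif2ak2 a miss of the threshold does not show that the groups are alike.

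**Figure D3:**
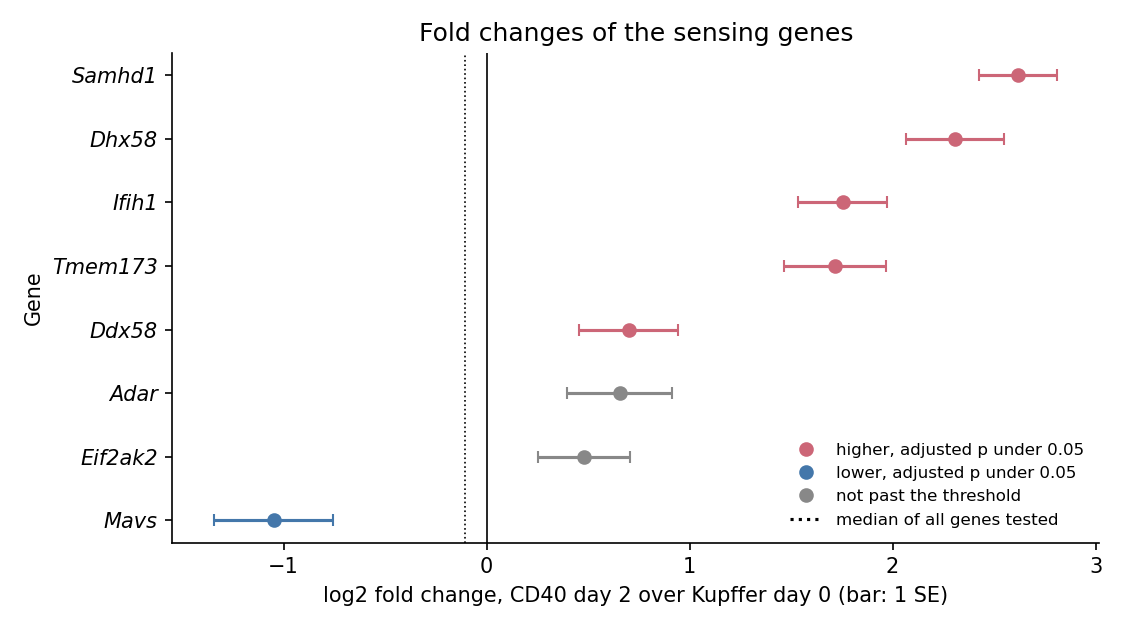
Log2 fold change of each gene between CD40 day 2 and Kupffer day 0 with 1 SE, coloured by call; the dotted line is the median of all 9852 genes tested (-0.1). Samhd1, Dhx58, Ifih1 and Tmem173 lie at 1.72 or more, Ddx58, Adar and Eif2ak2 between 0.48 and 0.7, and Mavs at -1.05.

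Because several of these genes are known interferon targets and moved by different amounts, their promoters are shown for the start sites in RefSeq (GRCm38.p6). Of the 9 genes, 7 are covered, with 10 windows of 300 bases, from 250 before to 50 after a start site. Windows of Dhx58 and Tmem173, which were both called higher, were not used. Each window was searched on both strands for the core of the interferon-stimulated response element, GAAANNGAAA, which 3.44% of 32851 windows of this length hold. It was found in Ifih1, Ddx58 and Eif2ak2, at bases 33, 3 and 19 after the start. The form with 1 base in the middle, GAAANGAAA, was added after the sequences had been seen. It is held by 3.17% of all windows, and was found 60 bases before the Ddx58 start and 29 after the start of the most downstream Adar window. The gamma-activated site TTCNNNGAA, held by 8.3% of windows, was found in that Adar window and in those of Eif2ak2 and Samhd1.

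The windows of the genes with a response element core and that of Samhd1, the gene that differed most, are printed 5' to 3' on the gene's strand, with either form of the core in capitals. They are chr2:62646206-62646505 (minus) for Ifih1, chr4:40239776-40240075 (minus) for Ddx58, chr17:78882523-78882822 (minus) for Eif2ak2, chr3:89730468-89730767 (plus) for Adar and chr2:157135047-157135346 (minus) for Samhd1.
Ifih1: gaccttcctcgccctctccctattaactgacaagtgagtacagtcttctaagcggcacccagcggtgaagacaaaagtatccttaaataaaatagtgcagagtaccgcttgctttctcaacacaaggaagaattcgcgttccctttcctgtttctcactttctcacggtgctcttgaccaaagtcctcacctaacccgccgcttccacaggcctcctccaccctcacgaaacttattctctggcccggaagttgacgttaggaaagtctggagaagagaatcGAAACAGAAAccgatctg
Ddx58: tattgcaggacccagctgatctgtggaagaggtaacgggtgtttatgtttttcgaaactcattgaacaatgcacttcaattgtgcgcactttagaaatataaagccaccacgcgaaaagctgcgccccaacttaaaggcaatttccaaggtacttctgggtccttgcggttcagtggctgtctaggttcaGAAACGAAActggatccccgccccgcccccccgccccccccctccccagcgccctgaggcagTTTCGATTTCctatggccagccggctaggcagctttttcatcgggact
Eif2ak2: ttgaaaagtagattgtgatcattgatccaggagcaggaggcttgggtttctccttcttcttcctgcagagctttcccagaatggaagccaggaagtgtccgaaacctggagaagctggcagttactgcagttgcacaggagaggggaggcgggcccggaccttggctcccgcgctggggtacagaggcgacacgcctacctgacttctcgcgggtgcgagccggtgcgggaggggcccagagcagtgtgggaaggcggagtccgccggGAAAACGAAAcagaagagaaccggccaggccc
Adar: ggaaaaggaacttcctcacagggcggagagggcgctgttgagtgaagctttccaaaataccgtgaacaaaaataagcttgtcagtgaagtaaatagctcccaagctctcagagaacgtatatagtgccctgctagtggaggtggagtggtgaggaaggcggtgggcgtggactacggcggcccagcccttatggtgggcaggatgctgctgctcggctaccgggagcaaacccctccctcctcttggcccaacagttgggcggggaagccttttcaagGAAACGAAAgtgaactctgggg
Samhd1: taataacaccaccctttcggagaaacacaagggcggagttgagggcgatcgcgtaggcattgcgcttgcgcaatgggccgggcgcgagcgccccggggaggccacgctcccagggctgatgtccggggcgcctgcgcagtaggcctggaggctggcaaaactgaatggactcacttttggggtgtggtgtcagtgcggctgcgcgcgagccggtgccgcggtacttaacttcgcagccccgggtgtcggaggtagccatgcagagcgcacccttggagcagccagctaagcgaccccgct
Among the genes whose windows were used, which leaves out Dhx58 and Tmem173, cores occurred with and without a called difference. Ifih1 holds the 2-base form and differed 3.38-fold, and Ddx58 holds both forms and differed 1.63-fold. Eif2ak2 holds the 2-base form and did not pass the test. The Samhd1 window holds neither form while the gene differed 6.14-fold. A link between these letters and the differences was not tested. The Mavs window holds none of the 3 motifs, and neither do the Adar windows other than the most downstream one. A match is a run of letters, not a bound site, and its absence says only that the letters are not in that window.

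The other genes of the pathways were taken from 7 lists written with earlier results of these data known. The lists held 86 genes, of which 74 were tested. Of these, 23 were higher and 19 lower in CD40 day 2, or 31.1% and 25.7%, beside 23.2% and 30.2% of all genes, and their median log2 fold change was 0.23. With total counts as the scale, 16 were higher and 22 lower. The median of all genes then moved by -0.17. The lists differed in balance, and are described one by one by their counts.

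Of 12 tested RNA-binding partners and other RNA sensors, 1 was higher, 2 were lower and 9 did not pass (median -0.24). Rnf125, a ubiquitin ligase that targets RIG-I and MDA5 for degradation, was at 1.11 ± 0.782 CPM (SD, n = 4) against 12.3 ± 0.337 (n = 2), a log2 fold change of -3.24 ± 0.56 SE (adjusted p = 0.000842). Ddx3x, an RNA helicase that also contributes to MAVS signalling, was at 28.3 ± 4.53 against 65.2 ± 0.409 CPM (-1.18, adjusted p = 0.00103). Zc3hav1, the zinc-finger antiviral protein, was higher at 92.1 ± 4.83 against 61.7 ± 5.28 CPM (0.59, adjusted p = 0.0178). That call was lost in 4 of 12 alternatives, among them without Kupffer a (0.49, adjusted p = 0.17) and without Kupffer b (0.67, 0.0622). Dhx15 (78.4 against 110.5 CPM) and G3bp1 (102 against 78.2 CPM) did not pass. Dhx15 did in 4 of 12 alternatives, among them without CD40 day 2 b (-0.52, adjusted p = 0.0484).

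Of the DNA sensors and regulators of the cGAS and STING branch, 2 of 8 tested were higher and 3 lower. Zbp1, a sensor of left-handed nucleic acid that can trigger necroptosis, stood at 1177, 1081, 1213 and 1011 CPM in CD40 day 2 and 77.5 and 73.8 in Kupffer day 0. The lowest CD40 day 2 library was more than 10-fold above either Kupffer library (log2 fold change 3.88 ± 0.19 SE). Aim2, the sensor that assembles an inflammasome on double-stranded DNA, was at 25.0 ± 6.13 against 6.64 ± 0.458 CPM (1.97, adjusted p = 0.00144). Trim32 and Trim56, ubiquitin ligases reported to modify STING, were lower, at 7.04 ± 2.02 against 53.6 ± 1.06 CPM and 21.4 ± 3.39 against 58.7 ± 2.25 CPM. Ifi203, of the same interferon-inducible family as Aim2, was lower (49.6 ± 6.62 against 88.9 ± 1.7 CPM, -0.83), and not called without Kupffer a (-0.81, adjusted p = 0.0516). Mb21d1, which encodes cGAS and was added after its values were seen, had few counts: it was at 5.46, 14.1, 18.2 and 14.9 CPM against 8.61 and 5.57. It did not pass (0.85 ± 0.5 SE, adjusted p = 0.175), except without CD40 day 2 a (1.09, adjusted p = 0.042). Ifi204 (66.3 against 42.5 CPM) and Mndal (100.3 against 99.6 CPM) did not pass, though Ifi204 did without CD40 day 2 b (0.81, adjusted p = 0.00516) and with RLE size factors (0.67, 0.0444).

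Among 9 tested regulators of MAVS, 3 were higher and 1 lower. Tax1bp1, an adaptor that restrains MAVS signalling, was at 890 ± 133 against 329 ± 18.4 CPM (log2 fold change 1.43 ± 0.19 SE, adjusted p = 0.000169). Nlrc5, an NLR protein also known as the transactivator of MHC class I genes, was at 50.7 ± 10.7 against 14.7 ± 1.11 CPM (1.73, adjusted p = 0.000657). Mul1, a mitochondrial ubiquitin ligase, was at 41.8 ± 3.17 against 28.1 ± 5.6 CPM (0.61, adjusted p = 0.0449), a call lost in 9 of 12 alternatives. It was lost without Kupffer a (0.38, adjusted p = 0.367), Kupffer b (0.8, 0.0602) and CD40 day 2 a, c or d (0.58, 0.59 and 0.65). Smurf1, a ubiquitin ligase, was lower at 6.51 ± 3.58 against 20.7 ± 4.16 CPM (-1.45, adjusted p = 0.0175). It was not called without Kupffer a (-1.7, adjusted p = 0.0699) or Kupffer b (-1.28, 0.103), nor with DESeq2 (-1.51, 0.0529). Pcbp1 (367 against 381 CPM) and Pcbp2 (141 against 161 CPM), RNA-binding proteins that promote degradation of MAVS, did not pass.

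The kinases, TRAF adaptors and transcription factors through which MAVS and STING act had 10 of 19 higher and 2 lower (median 0.71). The transcription factors divided. Irf5 was at 92.4 and 85.0 CPM in the Kupffer libraries and 685, 655, 710 and 697 in CD40 day 2 (log2 fold change 2.95 ± 0.17 SE, adjusted p = 1.28e-06). Irf7, itself interferon-induced, was at 291 and 269 CPM against 2164, 2286, 1689 and 1520 (2.77 ± 0.23 SE). Irf3, which is present before infection and is phosphorylated downstream of both adaptors, was at 150 and 113 CPM in Kupffer day 0 and 74.6, 82.1, 61.0 and 67.3 in CD40 day 2, where every library was lower (-0.91 ± 0.19 SE, adjusted p = 0.00308). Without Kupffer a the Irf3 value was -0.68 (adjusted p = 0.076). Tank, a scaffold of the kinase TBK1, was at 112 ± 12.1 against 19.2 ± 0.389 CPM (2.55). Ripk1, a kinase of death receptor and RNA helicase signalling, was lower at 37.3 ± 11.3 against 66.3 ± 1.21 CPM (-0.8, adjusted p = 0.027), a call lost in 5 of 12 alternatives. It was lost without Kupffer a or b (-0.78 and -0.82, adjusted p = 0.152 and 0.098) and without CD40 day 2 a or c (-0.67 and -0.8, adjusted p = 0.053 and 0.0579). Rela (116 against 108 CPM) and Azi2 (83.9 against 70.5 CPM) did not pass.

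Around PKR, the list of eIF2 kinases and the stress branch behind them had 6 of 10 lower and 3 higher (median -1.09). Ppp1r15a, the stress-induced subunit that directs dephosphorylation of eIF2, was at 1264 and 1281 CPM in Kupffer day 0 and 217, 142, 202 and 192 in CD40 day 2 (log2 fold change -2.75 ± 0.18 SE). Ppp1r15b, its constitutive counterpart, was higher instead (96.8 ± 9.47 against 54.3 ± 1.96 CPM, 0.84, adjusted p = 0.00395). Dnajc3, a chaperone that inhibits PKR, was at 141 ± 24.7 against 356 ± 1.4 CPM (-1.34), and Nck1, an adaptor protein, at 50.8 ± 13.2 against 166 ± 7.45 CPM (-1.67). Eif2s1, the eIF2 alpha subunit that PKR phosphorylates, was higher at 186 ± 42.7 against 84.2 ± 10.8 CPM (1.12, adjusted p = 0.00314). Eif2ak1, the haem-regulated kinase, was at 53.6 ± 3.27 against 36.5 ± 4.38 CPM (0.53, adjusted p = 0.0458). That call was lost in 10 of 12 alternatives, including the removal of Kupffer a or b (adjusted p = 0.111 and 0.22) or CD40 day 2 a, c or d (0.0807, 0.0902 and 0.0643). Ddit3 (82.5 against 65.2 CPM) did not pass.

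Other enzymes that remove or edit nucleic acid had 1 of 9 higher and 3 lower. Dnase1l3, a secreted DNase, was at 2569 and 3688 CPM in Kupffer day 0 and 278, 277, 236 and 210 in CD40 day 2 (log2 fold change -3.65 ± 0.19 SE). Adarb1, the second adenosine deaminase acting on RNA, was at 54.5 and 48.7 CPM against 1.82, 0, 0.455 and 1.79 (-5.5 ± 0.44 SE), a fitted value that depends on the prior count at such low levels. The endothelial, Kupffer and stellate marker lists fell over the same libraries, and their part in these 2 falls was not tested. Rnaseh2b, a subunit of the RNase that removes RNA from DNA hybrids, was higher at 63.5 ± 8.03 against 22.4 ± 8.08 CPM (1.42, adjusted p = 0.00122). Xrn1, an RNA exonuclease, was at 37.2 ± 6.17 against 56.3 ± 0.801 CPM (-0.58, adjusted p = 0.0432), a call lost in 8 of 12 alternatives, among them without any 1 of Kupffer a, Kupffer b, CD40 day 2 a, b or c (adjusted p = 0.195, 0.135, 0.086, 0.0857 and 0.0878). Dnase2a (98.7 against 61.9 CPM) did not pass, but did without CD40 day 2 b (0.93, adjusted p = 0.0115) and without a low-count filter (0.7, 0.0212), and Rnaseh2c (117 against 111 CPM) did not.

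Of 7 tested genes of interferon signalling, 3 were higher and 2 lower. Stat2, a transcription factor of the type I interferon response, was at 106 ± 7.85 against 67.1 ± 18 CPM (0.63, adjusted p = 0.0247), a call lost in 4 of 12 alternatives: without Kupffer b (0.42, adjusted p = 0.207) or CD40 day 2 c (0.59, 0.0642), with total counts (0.47, 0.0904) and with the stricter count filter (0.51, 0.0606). Irf9, which binds DNA in the same complex, missed the threshold, with 121 ± 19.3 CPM in CD40 day 2 and 115 ± 14.7 in Kupffer day 0. The kinases split, with Tyk2 higher (53.7 ± 5.66 against 21.5 ± 2.86 CPM, 1.27) and Jak1 lower (229 ± 33.2 against 1040 ± 69.8 CPM, -2.18). Of the receptor chains, Ifnar2 was lower (104 ± 15.8 against 157 ± 15.1 CPM, -0.59, adjusted p = 0.0227), a call lost without Kupffer a (-0.49, adjusted p = 0.19) or Kupffer b (-0.68, 0.0633) and with DESeq2 (-0.54, 0.0806). Ifnar1 (67.6 against 56.3 CPM) did not pass.

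Interferon beta itself (Ifnb1), the main output of both sensing branches, was too low to test and was uneven among libraries. It had 0 counts in both Kupffer libraries, which allows up to 1.72 and 4.18 CPM by the limit of 3 counts, and 3, 0, 31 and 0 counts in CD40 day 2 a to d. Library c alone held 91.2% of the 34 counts, at 14.1 CPM, while b and d allow up to 4.24 and 1.79 CPM. Ifna2 had 0 counts in all 6 libraries, with the same limits in those 4 libraries and up to 2.73 and 1.37 CPM in CD40 day 2 a and c.

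**Figure D4:**
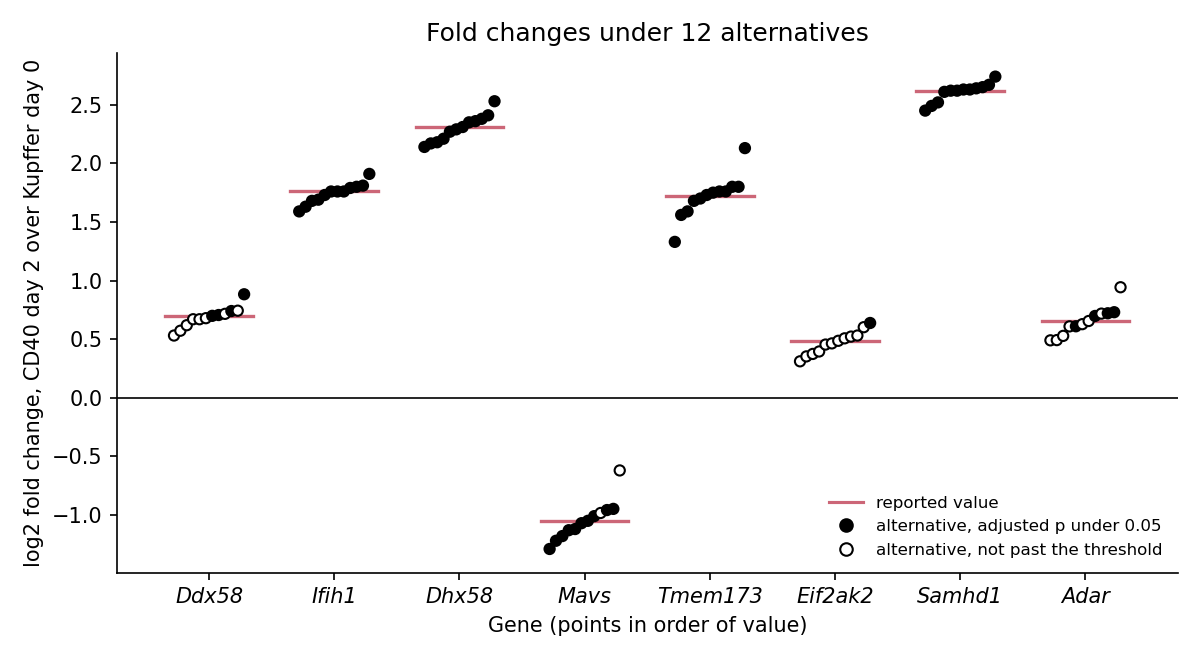
Log2 fold change of each of the 8 genes under 12 alternative analyses (points, filled where the adjusted p is under 0.05) and as reported (bar). Samhd1, Dhx58, Ifih1 and Tmem173 are filled throughout, Mavs in 10, Ddx58 and Adar in 4 each and Eif2ak2 in 1, and no point crosses 0.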

How the data were processed

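The deposited table holds raw counts per gene symbol, 1 column per library, which the authors made from barcoded 3' end libraries with molecular identifiers, per the labels' protocols. The submitters' processing notes name the build GRCm38.p6 and DESeq2 1.22.2. For the aligner, the annotation and whether reads or molecules were counted, the answer is not given in the sources used here. Column headers name the group but no replicate, so libraries are called a to d in table order, as names only. The columns of Kupffer day 7 and of CD40-negative cells at day 2 were not used. In each group the first column falls along the table with 1 step up. Its rank correlation with Kupffer day 0 a was 0.9998 and 0.9999 over 8009 rows, so values may be sorted apart from the names. Kupffer day 0 a, which was used, also falls along the table, with 0 steps up. The table stands in the order of that column, whose rank correlation with Kupffer day 0 b was 0.9466. The other columns of the 2 groups not used had 0.8896 to 0.9423 with Kupffer day 0 a. The value of 0.9466 alone thus does not show that column a matches its names.

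The 6 remaining libraries were fitted with edgeR 4.0.16 (TMM scaling, filterByExpr, quasi-likelihood test, two-sided, Benjamini-Hochberg over 9852 genes tested genome-wide, threshold 0.05). No replicate block was used. The SE of a log2 fold change is its size over the square root of F. CPM is counts over the TMM-adjusted library total. Within a group, every pair of libraries differed beyond counting error, with chi-square over its degrees of freedom at 3.17 to 11.7. The fit was tested on simulated data in which few genes changed, as many up as down, unlike in these libraries. DESeq2 1.42.0, limma-voom 3.58.1, RLE or total-count scaling, other filters and each library left out were the alternatives. Named genes are the members, Cd40, and from each pathway list up to 3 higher, 3 lower (lowest adjusted p) and 2 others (highest CPM). The result of 1 gene that this rule names is not reported here. Members and lists were chosen with earlier results of these data known. Gene positions come from GENCODE M21.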

Additional observations from a re-analysis of the deposited data

Results flagged for a closer look

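In 56 genes named above, the 4 CD40 day 2 libraries were examined for 1 that stood apart, by the gap to its neighbour over the range of the group (Dixon's test at the 95% level). None of the 8 sensing genes had such a library, but 5 of their pathway neighbours did. Chance flags about 1 in 20 such groups. Library b stood below the others for Zc3hav1 (84.9 CPM against 94.2, 94.7 and 94.7), for Ifi204 (45.3 CPM against 72.8, 72.8 and 74.5) and for Nck1 (31.1 CPM against 56, 56.9 and 59.2). The same library stood above the others for Irf9 (150 CPM against 110, 110 and 115). Library c was low for Dnajc3 (104 CPM against 153, 153 and 155). Library b has the fewest counts of its group (725683), and its marker shares differed too. Its Kupffer cell list took 0.0635% of counts, against 0.151%, 0.16% and 0.237% in a, c and d. Its classical monocyte list took 1.29%, against 1.74%, 1.68% and 1.61%. The conventional dendritic cell list took 0.0798% there, against 0.0546%, 0.0515% and 0.0507%. The endothelial list did not set b apart (0.0238%, with 0.0454%, 0.0217% and 0.0176% in a, c and d). The part of depth or of cell types in these flags was not tested.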

How the results depend on the processing

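No paired analysis was possible because the columns carry no replicate numbers. Of the 8 genes, 4 to 7 were called higher over the 12 alternatives (5 as reported). The number called lower was 1 except with DESeq2 and without Kupffer day 0 a, where it was 0. At an unadjusted p under 0.05 it was 1 with DESeq2 and 0 without Kupffer a, and limma-voom called 1. When 1 library was left out, the number lower was 0 to 1, pathway genes called higher were 13 (without Kupffer day 0 b) to 27, and those called lower 12 (without Kupffer day 0 a) to 20, against 23 and 19. Leaving out a Kupffer library leaves 1, assumed to vary like the others. Without Kupffer day 0 a, 1406 genes were higher and 1800 lower, against 2288 and 2974. Values near 0 changed sign. With total counts, Irf9 was at -0.0849, Rela at -0.0706 and Rnaseh2c at -0.104. With at least 10 counts in 4 libraries they were at -0.0529, -0.0357 and -0.0671. Mndal was at 0.0307 with RLE size factors and 0.0349 with DESeq2. Over the libraries left out, Mndal ranged from -0.103 to 0.115, Irf9 from -0.0614 to 0.206, Rnaseh2c from -0.00956 to 0.15 and Ifnar1 from -0.0426 to 0.656. None of these was called. The cause of these changes was not tested. Depth limits the values of genes with few counts, among them Mavs (9 to 66 counts a library), Rnf125 (0 to 21) and Ifnb1 (0 to 31).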
